A study of Mus musculus with 10 samples.

Results

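The 10 genes described here are Apoa1, Apoa2, Apoa4, Apoa5, Apob, Apoc1, Apoc2, Apoc3 and Apoe, which encode apolipoproteins, and Mttp, which encodes the large subunit of the microsomal triglyceride transfer protein. They were picked by name among the 21615 named genes on the array, and 13 probes measure them. Expression was measured in livers of 10 male miR-221 transgenic mice (TG221) on a B6D2F2 background, on 1-colour Agilent arrays, 1 array per mouse. The transgene makes the mice overexpress miR-221, a microRNA raised in many liver cancers; what drives it is not given in the sources used here. In 6 mice metformin, an oral glucose-lowering biguanide, was given at 300 mg/kg per day from week 3 of a CCl4 course. The other 4 mice had CCl4 without metformin. All 10 mice started CCl4, a liver toxin that causes fibrosis, at 4 to 6 weeks of age, as 20% (v/v) in olive oil 3 times a week for 14 weeks, and livers were taken at 24 weeks. The labels name both liver and hepatocellular carcinoma for every sample, and there is no group without CCl4 or without the transgene.

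Apolipoproteins are the protein coat of lipoprotein particles, which carry triglyceride and cholesterol through blood, and the liver is the main source of most of them. Apob is the scaffold of very-low-density lipoprotein (VLDL), and Mttp loads lipid onto it in the endoplasmic reticulum. Apoa1 and Apoa2 are the main proteins of high-density lipoprotein (HDL), the C apolipoproteins and Apoa5 set how fast plasma triglyceride is broken down, and Apoe is the ligand by which remnant particles enter the liver. Mice also make Apob and Apoa4 in the intestine, and Apoe in macrophages.

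The level given throughout is the log2 of the processed spot intensity minus the log2 of that array's 75th percentile over spots, and a difference is metformin plus CCl4 minus CCl4 on that scale. A gene was called at a Benjamini-Hochberg adjusted p below 0.05 in limma, with the adjustment over all 22180 tested features. The 75th percentile ran from 237 to 363 intensity units over the arrays, 51.2% to 54.9% of probes per array were well above background, and no spot was saturated. All 13 probes were well above background on all 10 arrays. The arrays of each group shared 1 slide and 1 scan day, and no slide or scan day held both groups. Slide and scan day therefore cannot be told apart from metformin. All 4 CCl4 arrays and those of metformin mice 1 and 2 lay in the first row of their slide, and those of metformin mice 3 to 6 lay in the second row. The mouse numbers follow the sample titles, and the p-values describe the spread between these mice. Of 12 hepatocyte markers, all were tested, with a mean level of 9.06 to 9.37 in metformin livers and 9.23 to 9.51 in CCl4 livers. Of 7 intestinal markers, 5 stayed too dim on all 10 arrays to count as well above background, while Fabp2, the 1 that was tested, averaged 6.16 in metformin livers and 5.92 in CCl4 livers and was well above background on all 10.

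Of the 10 genes, 1 was higher with metformin (Apoa5), 1 was lower (Apoa1) and 8 were not called. The share called was 20%, against a background of 45.4% of all tested features, of which 28% were higher and 17.4% lower. The groups did not overlap for 2 of the 10 genes, the same Apoa5 and Apoa1, where 33.7% of all features had groups that did not overlap. The median difference of the 10 genes was -0.011 and their median absolute difference was 0.11, against 0.10 and 0.38 over all features. On the probes that represent the genes, the differences of the 8 uncalled genes ran from -0.14 to 0.15. Their 95% intervals lay between -0.38 and 0.48. A second Apob probe lay outside that range, at 0.48 with a 95% interval of 0.16 to 0.81, and passed the threshold among all kept probes. Of the 10 genes, 9 had a residual SD below the median of all features (0.24), and 1, Apoa5, had one above it (0.32).

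**Figure D1:**
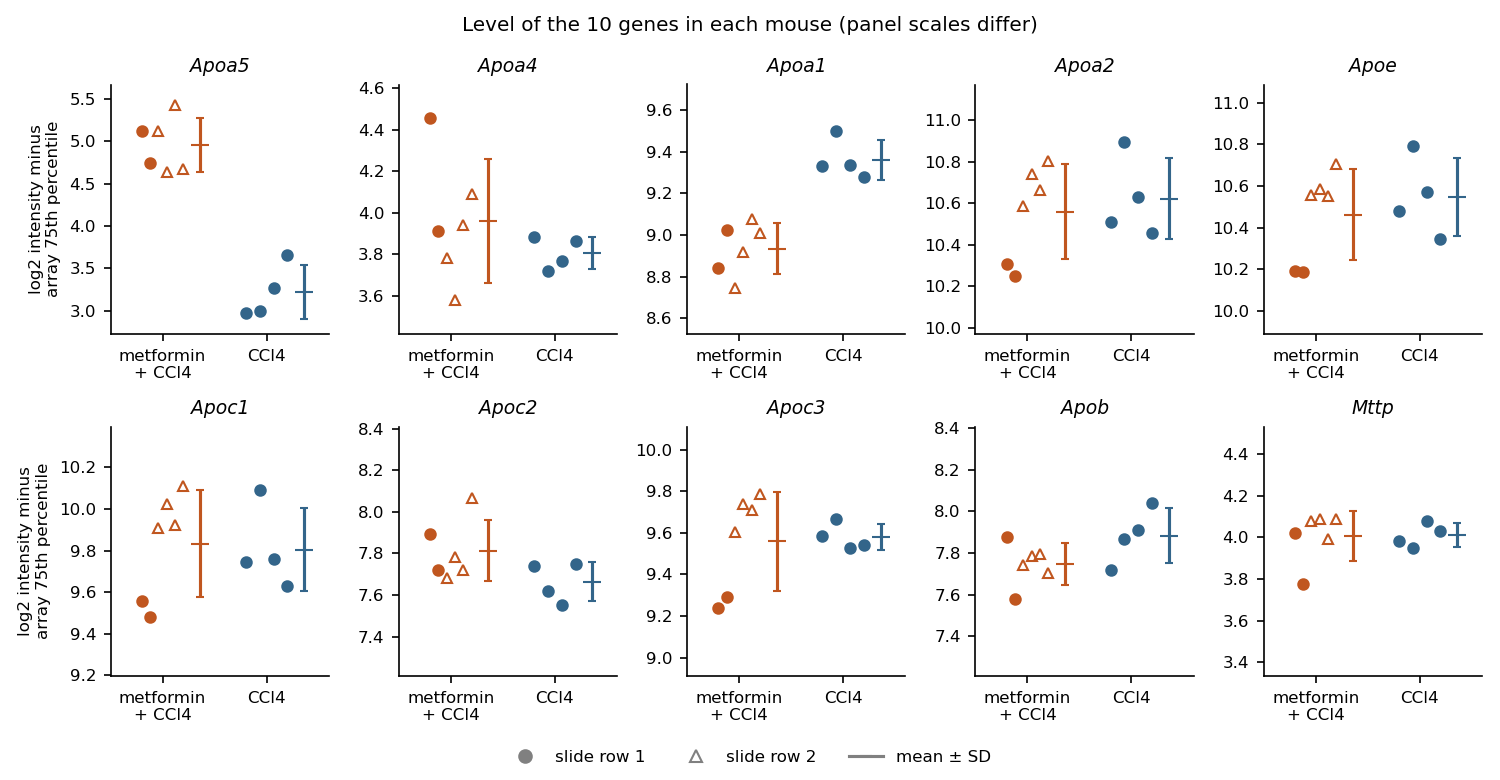
Level of each gene in each mouse, as log2 intensity minus the array's 75th percentile, with metformin plus CCl4 (6 mice, orange) left of CCl4 (4 mice, blue). Filled circles are arrays of slide row 1, open triangles those of slide row 2, and bars give the mean and SD. Apoa5 and Apoa1 have groups that do not overlap, and in Apoa2, Apoe, Apoc1 and Apoc3 the 2 metformin mice of slide row 1 lie below the other 4.

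Apoa1 and Apoa5 lie in the same gene cluster on chromosome 9, with Apoc3 and Apoa4 between them, and moved in opposite directions. Their promoter sequences are shown for that reason, each the 250 bases before an annotated start. They are from RefSeq on GRCm38.p6, both on the plus strand, at chr9:46268358-46268607 for Apoa5 and chr9:46228380-46228629 for Apoa1. Capitals in Apoa5 mark an E-box (CACGTG, 82 to 77 bases before the start), a form of the FOXA recognition sequence (TGTTTGC, 75 to 69 bases before it) and a TATA box (TATAAA, 31 to 26 bases before it). Capitals in Apoa1 mark 2 copies of TGTTTGC, at 88 to 82 and 75 to 69 bases before the start.
Apoa5: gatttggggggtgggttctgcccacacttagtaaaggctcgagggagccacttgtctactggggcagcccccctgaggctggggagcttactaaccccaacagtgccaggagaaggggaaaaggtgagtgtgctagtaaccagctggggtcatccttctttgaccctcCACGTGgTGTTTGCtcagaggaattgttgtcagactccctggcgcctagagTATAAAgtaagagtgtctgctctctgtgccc
Apoa1: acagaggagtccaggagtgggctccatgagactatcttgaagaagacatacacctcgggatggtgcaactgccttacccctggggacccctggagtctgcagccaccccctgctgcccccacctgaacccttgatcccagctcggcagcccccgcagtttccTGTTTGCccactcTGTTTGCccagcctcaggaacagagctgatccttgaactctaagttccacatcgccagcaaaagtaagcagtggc

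These letters are a description of the windows and not evidence of binding. Over 32851 mouse promoter windows of the same length, searched on both strands, TGTTTGC was in 4.30%, CACGTG in 6.02% and TATAAA in 12.4%. Windows were found for 8 of the 10 genes, 12 windows in all, and none for Apoc1 and Apoc3. TGTTTGC was in windows of Apoa1, Apoa5 and Apob, CACGTG in those of Apoa5, and TATAAA in those of Apoa2, Apoa5, Apob and Apoe. A second FOXA form, TGTTTAC, was in 1 window, of Apoa2, and in 3.17% of all windows. The C/EBP pattern TTGCNNAA was in windows of Apoa2 and Apob and in 9.56% of all, and the direct repeat 1 core of nuclear receptors in that of Apoc2 and in 0.338% of all. No window of the 10 genes held the ROR and REV-ERB site TAGGTCA (2.23% of all windows), the HNF4A form CAAAGTCCA (0.384%) or the sterol response element TCACNCCAC (1.05%).

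Apoa5 encodes a low-abundance plasma apolipoprotein that speeds the lipolysis of triglyceride-rich particles, and mice without it have raised plasma triglyceride. Its level was 5.13, 4.74, 5.12, 4.64, 5.43 and 4.67 in metformin mice 1 to 6, against 2.97, 3.00, 3.27 and 3.65 in CCl4 mice 1 to 4. Every metformin mouse was above every CCl4 mouse. The mean was 4.95 ± 0.32 in metformin livers and 3.22 ± 0.32 in CCl4 livers (SD, n = 6 and 4), a difference of 1.73 with a standard error of 0.19. That is 3.32-fold higher with metformin (95% interval 2.48 to 4.45), with an adjusted p of 1.03e-04 in limma. The difference was 1.71 when the 2 metformin arrays of slide row 1 were compared with the 4 CCl4 arrays, which share that row, and 1.74 for the 4 of row 2. It was 1.17 after scaling to the arrays' spike-in transcripts, a setting in which the median difference of all features was -0.46. Apoa5 passed the threshold in all 23 alternatives, with an adjusted p of 3.1e-05 to 0.00882. In the authors' deposited table of 4595 selected probes, Apoa5 was the one gene of the 10 that is listed, and the difference of the group means of its log2 values was 1.63.

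Apoa1 encodes the main structural protein of HDL and the cofactor of the cholesterol-esterifying enzyme Lcat. Its level was 8.84, 9.02, 8.75, 8.92, 9.07 and 9.01 in metformin mice 1 to 6, against 9.33, 9.50, 9.34 and 9.28 in CCl4 mice 1 to 4. All 6 metformin mice were below all 4 CCl4 mice, although the nearest mice of the groups were 9.07 and 9.28. The mean was 8.93 ± 0.12 in metformin livers and 9.36 ± 0.10 in CCl4 livers (SD, n = 6 and 4). The difference was -0.43 with a standard error of 0.09 (95% interval -0.63 to -0.23), which is 1.34-fold lower with metformin at an adjusted p of 0.00357 in limma. It was -0.98 after spike-in scaling. With no scaling between arrays it was -0.44 at an adjusted p of 0.0684, the 1 of 23 alternatives in which the call was lost.

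Apoa2, the second protein of HDL, was 10.31, 10.25, 10.59, 10.74, 10.66 and 10.80 in metformin mice 1 to 6, against 10.51, 10.89, 10.63 and 10.45 in CCl4 mice. The groups overlapped, with a difference of -0.063 ± 0.14 (standard error). A second Apoa2 probe gave a difference of 0.075, and neither was called. Apoa4, an apolipoprotein of chylomicrons and HDL, was 4.46, 3.91, 3.78, 3.58, 3.94 and 4.09 in metformin mice, against 3.88, 3.72, 3.77 and 3.86 in CCl4 mice. Its metformin values reached both above and below the CCl4 range, and the difference was 0.15 with a 95% interval of -0.18 to 0.48. Apoa4 stands next to Apoa5 on chromosome 9, where Apoa5 differed by 1.73.

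**Figure D2:**
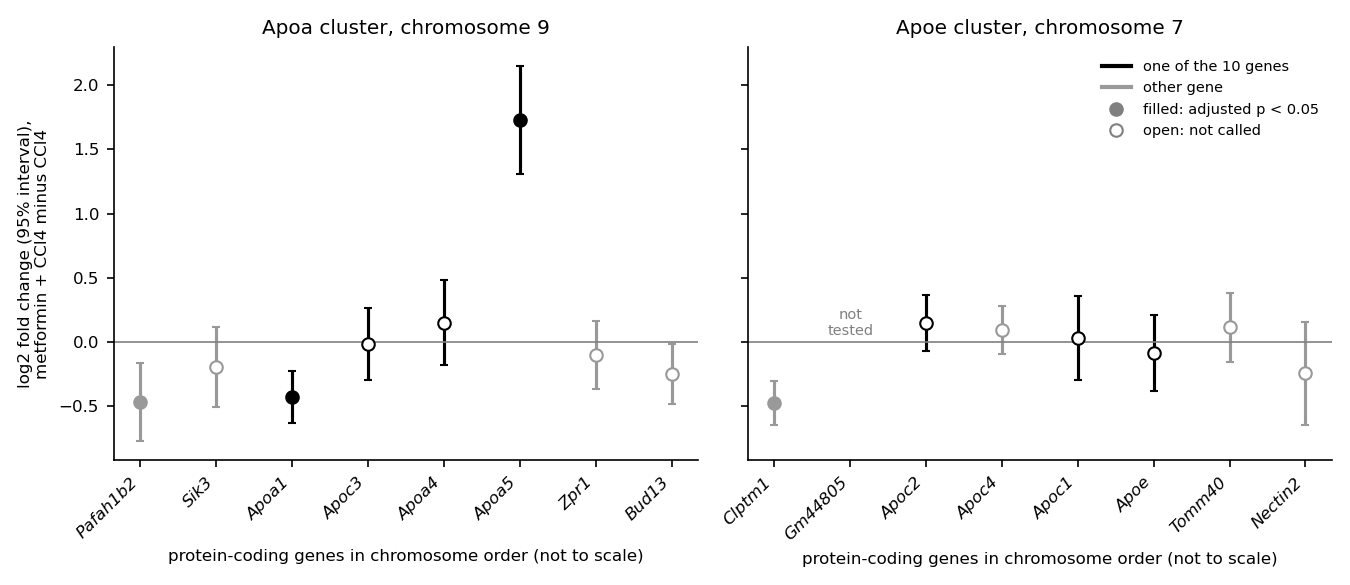
Difference in level (metformin plus CCl4 minus CCl4, log2, with 95% intervals) of the genes in both apolipoprotein clusters and of their neighbours, in chromosome order. Filled points passed the threshold and black ones are among the 10 genes; Gm44805 was not tested. On chromosome 9 Apoa5 stands at 1.73 between Apoa4 at 0.15 and Zpr1 at -0.10, and on chromosome 7 none of the apolipoprotein genes was called.

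The chromosome 9 cluster runs Apoa1, Apoc3, Apoa4, Apoa5 in the RefSeq gene order. On the Apoa5 side its neighbours Zpr1 (-0.10, and 0.072 on a second probe) and Bud13 (-0.25) were not called. On the Apoa1 side Sik3 (-0.20, and -0.79 to -0.14 on its other probes) was not called and Pafah1b2 was lower by -0.47 at an adjusted p of 0.0173 in limma. The chromosome 7 cluster runs Apoc2, Apoc4, Apoc1, Apoe, and none of its 4 genes was called, with differences of 0.15, 0.095, 0.029 and -0.085. Beyond it, Clptm1 was lower by -0.48 at an adjusted p of 7.2e-04 in limma, and Tomm40 (0.12) and Nectin2 (-0.25) were not called. A second Tomm40 probe gave -0.46 and a second Nectin2 probe 0.064.

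Apoc3 inhibits lipoprotein lipase and the uptake of remnants. It was 9.24, 9.29, 9.60, 9.74, 9.71 and 9.78 in metformin mice 1 to 6, against 9.58, 9.67, 9.53 and 9.54 in CCl4 mice 1 to 4. The metformin mice lay on both sides of the CCl4 range, mice 1 and 2 below it and mice 4 to 6 above it, and the difference was -0.019 with a 95% interval of -0.30 to 0.26. Apoc2 is the activator of lipoprotein lipase. It was 7.90, 7.72, 7.68, 7.79, 7.72 and 8.07 in metformin mice, against 7.74, 7.62, 7.55 and 7.75 in CCl4 mice. The groups overlapped, at a difference of 0.15 with a 95% interval of -0.068 to 0.36. Apoc1, which inhibits lipid transfer and receptor uptake, was 9.56, 9.48, 9.91, 10.02, 9.92 and 10.11 in metformin mice, against 9.74, 10.09, 9.76 and 9.63 in CCl4 mice. Its difference was 0.029, with a 95% interval of -0.30 to 0.36.

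Apoe, the ligand of remnant uptake, was 10.19, 10.18, 10.55, 10.59, 10.55 and 10.71 in metformin mice 1 to 6, against 10.48, 10.79, 10.57 and 10.35 in CCl4 mice 1 to 4. The groups overlapped and the difference was -0.085 with a 95% interval of -0.38 to 0.21. Of 12 macrophage and Kupffer cell markers tested, 0 were higher and 4 lower with metformin. The share called was 33.3%, all lower, against 17.4% of all features called lower and 45.4% called in either direction. The mean level of these markers was 2.06 to 2.83 in metformin livers and 2.67 to 3.11 in CCl4 livers. The 4 were Cd68 (-0.70), Lyz2 (-0.81), C1qa (-0.84) and C1qb (-1.22). The Lyz2 call was lost with slide row 1 alone. Adgre1, a defining marker, differed by -0.060 and was not called, with -0.72 on a second probe. Marco (0.55), Vsig4 (0.070) and Timd4 (0.016) differed in the other direction and were not called, and the remaining uncalled markers had negative differences. In whole liver, fewer cells of a type and less RNA per cell cannot be told apart, and the part of these cells in the Apoe level was not tested.

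In 4 of the 10 genes (Apoa2, Apoc1, Apoc3 and Apoe) both metformin mice of slide row 1 were below all 4 of slide row 2, by 0.42, 0.47, 0.45 and 0.41 between row means. This pattern was found in 18.6% of all tested features, and the reverse in 9.26%, against 0 of the 10 genes. The same 2 arrays had the highest 75th percentiles of the metformin group, 351 and 363, against 237 to 276 for the 4 of row 2. Before scaling, the intensity of Apoe ran from 396675 to 443061 over all 10, at most 63.3% of the saturation value, and for Apoc1 from 250398 to 273359. On the probes that represent the genes, the highest array was 1.12 times the lowest for Apoe and for Apoa2, 1.09 times for Apoc1 and 1.30 times for Apoc3, where the 75th percentile differed by 1.53 times and the median feature by 2.33 times. The second Apoa2 probe differed by 1.20 times and the second, dimmer Apoc3 probe by 1.62 times. How far the bright probes follow RNA amount was not tested. With slide row 1 alone the differences of these genes were -0.34 for Apoa2, -0.36 for Apoe, -0.29 for Apoc1 and -0.32 for Apoc3, none of them called, in a setting that called 28.2% of all features. With the 4 metformin mice of row 2 against CCl4 they were 0.077, 0.053, 0.19 and 0.13, and none was called, against 42.9% of all features.

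**Figure D3:**
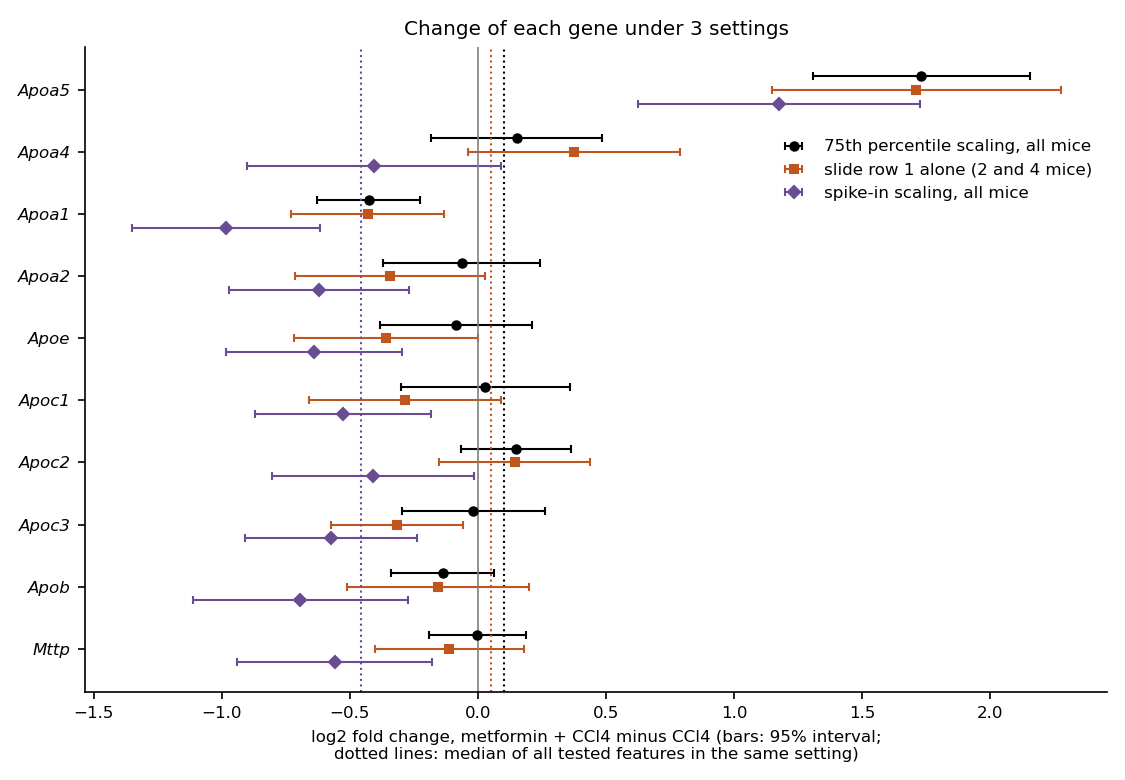
Difference of each gene (metformin plus CCl4 minus CCl4, log2) with its 95% interval under 3 settings: all mice with 75th percentile scaling (black), slide row 1 alone (orange) and spike-in scaling (purple). Dotted lines give the median of all features in the same setting, which spike-in scaling put at -0.46. Apoa5 is at 1.17 or above in the 3 settings. Spike-in scaling subtracts 1 value per array and so moves all 10 genes by the same amount as the median, and relative to that median Apoa5 differed by 1.63 with either scaling.

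The number called lower depended on the scaling. After spike-in scaling it was 7 of the 10 genes, against 43.8% of all features, and Apoa5 stayed higher, against 4.17%. It was 2 with quantile normalization (20.2% of all features), 2 with slide row as a covariate (13.8%), 0 with no scaling between arrays (11.7%) and 1 in each fit that left out 1 mouse.

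Apob was measured by 2 probes that gave different answers. The brighter probe read 7.88, 7.58, 7.74, 7.79, 7.79 and 7.70 in metformin mice 1 to 6, against 7.72, 7.87, 7.91 and 8.04 in CCl4 mice 1 to 4. Its groups overlapped, and the difference was -0.14 with a 95% interval of -0.34 to 0.064. The other probe read 7.32, 6.93, 7.47, 7.37, 7.42 and 7.53 in metformin mice, against 7.16, 6.91, 6.55 and 6.81 in CCl4 mice. Here 5 of the 6 metformin mice were above all CCl4 mice, and the difference was 0.48 ± 0.15 (standard error), with an adjusted p over all kept probes of 0.0209 in limma. The probes' differences were 0.62 apart, and the mean of both gave 0.17, which was not called.

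The Apob transcript is edited by the deaminase Apobec1 with its RNA-binding partner A1cf, which creates the stop codon of the short apoB-48 form. Apobec1 was 2.26, 2.44, 2.06, 2.29, 2.11 and 2.05 in metformin mice, against 2.62, 2.62, 3.02 and 3.29 in CCl4 mice, so that all 6 metformin mice were lower. The difference was -0.69 with a standard error of 0.15 and an adjusted p of 0.00366 in limma, and the call was kept in 19 of 23 alternatives, though not with slide row 1 alone. A1cf was 1.57, 1.03, 1.32, 1.03, 1.32 and 1.30 in metformin mice, against 0.64, 0.37, 0.28 and 0.89 in CCl4 mice. All 6 metformin mice were higher, by 0.72 with a standard error of 0.15 and an adjusted p of 0.00288 in limma, and this call was kept in 21 of 23, though not with slide row 1 alone or after spike-in scaling. The arrays do not measure editing of the transcript.

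**Figure D4:**
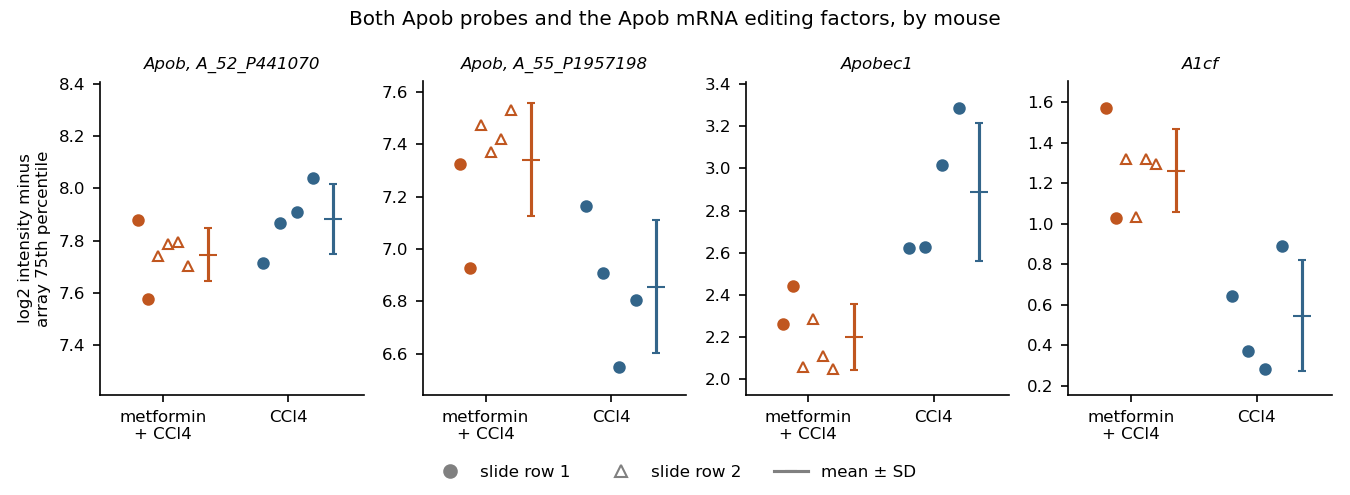
Level by mouse of both Apob probes and of the editing factors Apobec1 and A1cf, with metformin plus CCl4 (orange) left of CCl4 (blue); symbols and bars are those of the plot of the 10 genes. The first Apob probe overlaps between groups at a difference of -0.14, and the second has 5 of 6 metformin mice above all CCl4 mice.

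Mttp was 4.02, 3.78, 4.08, 4.09, 3.99 and 4.09 in metformin mice 1 to 6, against 3.98, 3.95, 4.08 and 4.03 in CCl4 mice 1 to 4. The groups had nearly the same mean, 4.01 ± 0.12 in metformin livers and 4.01 ± 0.06 in CCl4 livers (SD, n = 6 and 4). The 95% interval of the difference, -0.19 to 0.19, corresponds to 0.875-fold to 1.14-fold. Of the 13 other assembly and secretion genes tested (of 14 listed), 3 were higher, 2 lower and 8 not called, 38.5% in all against 45.4% of all features. P4hb, protein disulfide isomerase and the partner subunit of Mttp, was lower by -0.53 at an adjusted p of 0.00255 in limma. Mia2, a cargo receptor for the export of large particles from the endoplasmic reticulum, was higher by 0.37, kept in 18 of 23 alternatives. Smlr1 was higher by 0.23, a call that was kept in 7 of 23 alternatives. Cideb, which takes part in VLDL lipidation, differed by -0.083 (-0.45 on a second probe), Tm6sf2 by 0.24 and the small GTPase Sar1b by -0.21, and none of these was called.

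Of 14 other apolipoprotein genes, all tested, 2 were higher, 3 lower and 9 not called, 35.7% in all against 45.4% of all features, with a median of 0.11. Apod, a lipocalin named as an apolipoprotein, was lower by -0.70, with all 6 metformin mice below all 4 CCl4 mice, and was called in all 23 alternatives. Apol9b (-0.31) and Apol9a (-0.25, and -0.35 on a second probe) were lower, but kept their calls in 11 and 8 of 23 alternatives; these are near-identical copies, so their probes may share signal. Apol7a was higher by 0.61, kept in 12 of 23, and lost without CCl4 mouse 1, 2 or 3, and a second probe gave -0.092. Apool, a mitochondrial inner membrane protein related to Apoo, was higher by 0.37, kept in 19 of 23. The acute phase apolipoproteins Saa1 and Saa2 differed by 1.07 and 1.19 and were not called, with an SD among metformin mice of 2.28 and 2.27. Apoc4 (0.095), Apom (0.024), Apoh (0.21) and Clu (0.023) were not called.

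**Figure D5:**
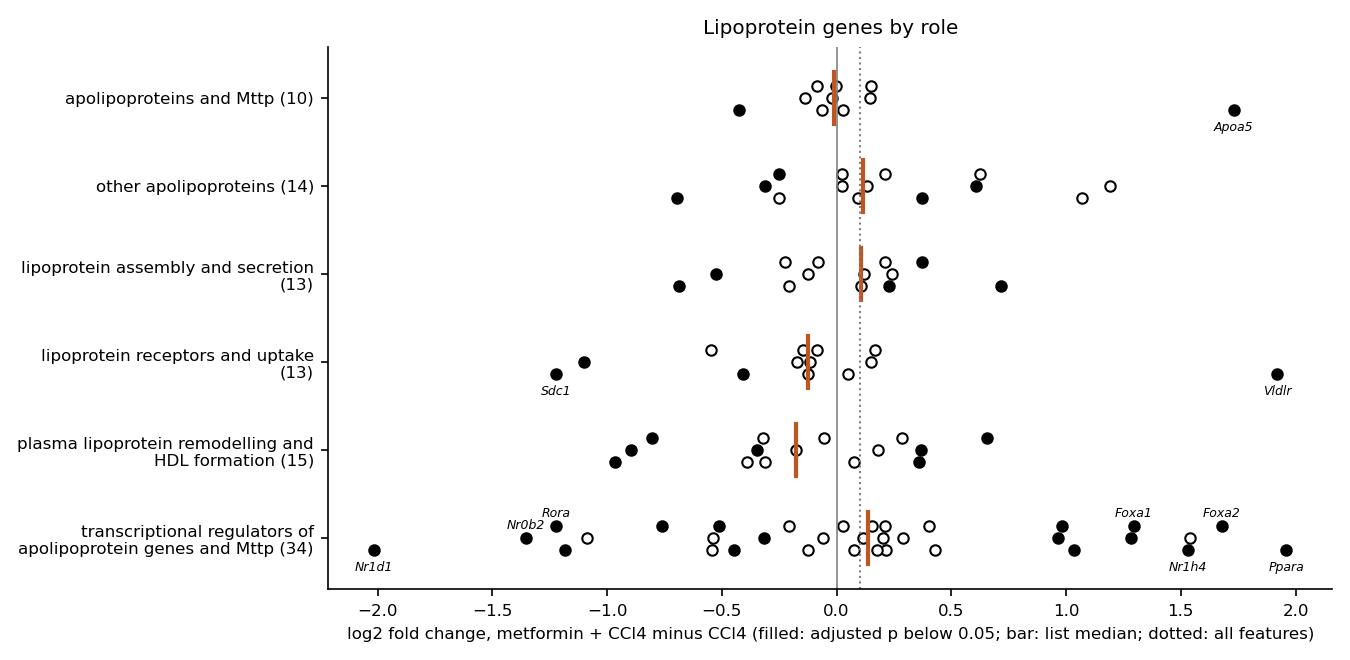
Difference (metformin plus CCl4 minus CCl4, log2) of the tested genes in 6 groups, by role, with the number tested in brackets. Filled points passed the threshold, open ones did not, orange bars are group medians and the dotted line is the median of all features, 0.10. The 10 genes gather near 0 apart from Apoa5 (1.73) and Apoa1 (-0.43). Receptors and regulators spread from -2.02 (Nr1d1) to 1.96 (Ppara).

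Among the receptors that take up apolipoprotein-bearing particles, 13 of 14 listed genes were tested: 1 was higher, 3 lower and 9 not called, 30.8% in all against 45.4% of all features, with a median of -0.12. Sdc1, a heparan sulfate proteoglycan that binds remnants, averaged 3.74 ± 0.25 in metformin livers and 4.96 ± 0.37 in CCl4 livers (SD, n = 6 and 4). The groups did not overlap, and it was lower by -1.22 at an adjusted p of 4.7e-04 in limma. Scarb1, the HDL receptor, was lower by -0.41, kept in 18 of 23 alternatives, and a second probe gave -1.19. The Scarb1 call was lost without CCl4 mouse 1 or 2, with the replicate block and with no scaling between arrays. It was also lost with the metformin mice of slide row 2 against CCl4. Vldlr was higher by 1.92, with overlapping groups and a wide 95% interval of 0.68 to 3.16. Its call was lost after spike-in scaling and with the metformin mice of slide row 2 against CCl4. Lrp1 (0.17) was not called.

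Of 16 genes that remodel lipoproteins in plasma or form HDL, 15 were tested, and 3 were higher, 4 lower and 8 not called, 46.7% in all against 45.4% of all features, with a median of -0.18. Lpl, lipoprotein lipase, was lower by -0.97 at an adjusted p of 0.00731 in limma, with -2.24 on a second probe. Abca1, the exporter that loads lipid onto Apoa1, was lower by -0.89 at an adjusted p of 0.00269 in limma, lost with slide row 1 alone. Pltp, which moves phospholipid between particles, was lower by -0.81, and Lcat by -0.35, a call lost without metformin mouse 4 or 6 or without any single CCl4 mouse. Pon1, an HDL-bound esterase, was higher by 0.66 at an adjusted p of 0.00159 in limma. After spike-in scaling the Pon1 difference was 0.10 and was not called. Pon3 and Pcyox1 were higher by 0.37 and 0.36, kept in 17 and 19 of 23 alternatives, and a second Pcyox1 probe gave 0.14. Lipc (-0.31), hepatic lipase, and Angptl4 (-0.18), an inhibitor of lipoprotein lipase, were not called. Of 9 stellate cell and myofibroblast markers tested, 0 were higher, 6 lower and 3 not called. The share called was 66.7%, all lower, against 17.4% of all features called lower and 45.4% called in either direction. The mean level of these markers was -0.58 to 0.23 in metformin livers and 0.29 to 1.01 in CCl4 livers. Lox, the tenth such marker, was never well above background. Lpl, Abca1, Pltp and Apod are also expressed outside hepatocytes, and the part of other cell types in their levels was not tested.

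Of 34 transcription factors and coregulators known to act on these genes, all tested, 8 were higher, 8 lower and 18 not called, 47.1% against 45.4% of all features. Ppara, the receptor for fatty acids and fibrates, known to act on the human APOA5 promoter, averaged 5.84 ± 0.42 in metformin livers and 3.88 ± 0.77 in CCl4 livers (SD, n = 6 and 4). It was higher by 1.96 at an adjusted p of 0.00103 in limma, with 1.39 and 1.86 on its other probes. Nr1h4, the bile acid receptor FXR, also known to act on human APOA5, was higher by 1.53, and the forkhead factors Foxa2 and Foxa1 by 1.68 and 1.30, each with groups that did not overlap, and a second Foxa2 probe gave 1.66. Rora, an activator at the site to which Nr1d1 binds as a repressor, was lower by -1.22, with -0.54 on a second probe. Nr1d1, the circadian repressor REV-ERB alpha, was the most lowered of the list, by -2.02 at an adjusted p of 6.3e-05 in limma. Srebf1, the regulator of fatty acid synthesis, was lower by -1.18, and Nr0b2, the corepressor SHP, by -1.36, a call lost with slide row 1 alone. Hnf4a, the nuclear receptor known to act on most of the 10 genes, differed by 0.21 and was not called, nor were Cebpa (0.075) and Creb3l3 (0.21). After spike-in scaling 3 of the 34 regulators were higher and 15 lower, against 4.17% and 43.8% of all features. Ppara, Foxa2 and Nr1h4 kept their calls there, while Foxa1 lost its call.

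The genes whose profile over the 10 arrays was most like that of Apoa5 were Zbtb40, Nr1h4 and Tnrc6c, with a root mean square difference of 0.18, 0.19 and 0.21 log2 units after each profile was centred on its mean. For Apoa1 they were Atrip, Noc2l and Uqcrc1, at 0.063, 0.068 and 0.071. In each case 14524 named genes were compared, and the likeness includes the difference between the groups.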

How the data were processed

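Each deposited scanner file gives linear spot intensities, background-subtracted and detrended by Agilent Feature Extraction 10.7.3.1 but not normalized between arrays, per the file headers. Flagged spots were left out and spots of a probe averaged. Log2 intensities were centred on each array's 75th percentile. Of 55681 probes, 29575 were kept, being well above background on 75% or more of 1 group's arrays. Accessions were matched to RefSeq symbols (GRCm38.p6; names only, since the array grid is on mm9), which named 28679 probes. A gene's brightest kept probe represents it, and unnamed probes were grouped by accession. Groups were compared with limma 3.58.1 in R 4.3.3 (two-sided, 22180 features). The script was tested on simulated data, where far fewer features were changed than were called in these data. It called 65 of 100 features changed by 1 log2 unit, 13 of 100 changed by 0.5, and 6 unchanged ones. A further table from the authors lists 4595 selected probes as quantile-normalized log2 values, per the file's first line.

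The 10 genes and all lists were chosen with earlier results of these data known. From each list the text names up to 4 called genes with the largest differences in each direction, with some uncalled genes by value; a few are not reported here. For called members it names the 3 genes of most similar profile. Alternatives were normexp background correction (offset 50, on median spot intensities because no mean intensity column was used), quantile, median and spike-in scaling, no filter, a stricter filter, the mean of all probes, array weights, slide row, the replicate block and leaving out each mouse. No scaling between arrays and the metformin mice of slide row 2 against CCl4 were added after seeing the data.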

Additional observations from a re-analysis of the deposited data

Results flagged for a closer look

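Of the 10 genes in both groups (20 sets of values), 1 had a mouse far from the others. Mttp was lowest in metformin mouse 2, at 3.78 log2 units against 3.99 to 4.09 in the other 5 metformin mice, a gap of 0.69 of the range of the group. Chance marks about 1 in 20 sets in this way. Without that mouse the Mttp difference was 0.043 and was not called.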

How the results depend on the processing

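The numbers limit precision, 6 and 4 mice, and slide and scan cannot be told apart from metformin. Across 23 alternatives Apoa5 kept its direction and its call, and Apoa1 kept its direction and lost its call in 1: with no scaling it was -0.44 (adjusted p 0.0684), leaving 0 genes called lower. Spike-in scaling subtracts 1 value per array that differed between groups, and it called 7 of the 10 genes lower, against 1: Apoa1, Apoa2 (-0.62), Apob (-0.69), Apoc1 (-0.53), Apoc3 (-0.57), Apoe (-0.64) and Mttp (-0.56). Apoa4 (-0.41) and Apoc2 (-0.41) turned to negative values there without a call. Under that scaling 4.17% of all features were called higher and 43.8% lower. With quantile normalization 2 were lower, Apob (-0.32) being the second, and Apoa2 (0.022), Apoc1 (-0.072) and Apoc2 (-0.050) changed sign. With slide row as a covariate 2 were lower, Apoc3 (-0.32) being the second, and Apoc1 was -0.29, as with slide row 1 alone (-0.29). Other changes of sign were in uncalled genes. They were Apoc1 with median scaling (-0.037) and with array weights (-0.027), Mttp with array weights (0.019), and Apoc3 (0.081) and Mttp (0.14) with normexp. With the mean of all probes they were Apoa2 (0.0061) and Apob (0.17). Against the metformin mice of slide row 2 they were Apoa2 (0.077), Apoc3 (0.13), Apoe (0.053) and Mttp (0.052). The cause of these changes was not tested.

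Leaving out 1 mouse changed the call of none of the 10 genes. The differences then ran from -0.45 to -0.38 for Apoa1, -0.12 to 0.027 for Apoa2, 0.052 to 0.23 for Apoa4, 1.64 to 1.87 for Apoa5, -0.19 to -0.086 for Apob, -0.030 to 0.12 for Apoc1, 0.096 to 0.18 for Apoc2, -0.064 to 0.046 for Apoc3, -0.15 to -0.0033 for Apoe and -0.024 to 0.043 for Mttp.

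The sample titles give mice 1 to 4 the same numbers in both groups, though they are separate mice. Deviations from the group means of same-numbered mice correlated at -0.14, -0.12, 0.085 and -0.0036, so the numbers do not pair the mice. With the replicate block 30.7% of all features were called, against 45.4%, Apoa5 and Apoa1 stayed called, and the Apoc1 difference was -0.063 in place of 0.029.

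Counts of called genes in the other lists moved most with spike-in scaling. There 8 of 13 receptors were lower in place of 3, and 9 of 15 plasma remodelling genes in place of 4. Of 13 assembly genes 6 were lower in place of 2, and of 14 other apolipoproteins 7 in place of 3. Of 34 regulators 15 were lower in place of 8. Over all features the share called lower was 43.8% in place of 17.4%. Higher calls under spike-in scaling were 3 among the regulators and 0 in each of the other 4 lists, against 4.17% of all features.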

Other observations

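Genes that adjoin Apoa2 on chromosome 1 and Apob on chromosome 12 were read from the RefSeq gene order after their values were seen. Next to Apoa2, Nr1i3, the xenobiotic receptor CAR, was higher by 0.88 (adjusted p 0.0208 in limma) and Tomm40l by 0.61 (0.0039), while Fcer1g, an Fc receptor subunit of myeloid cells, was lower by -0.55 (0.0292). Next to Apob, Klhl29 was lower by -1.46 (adjusted p 0.00101 in limma) and Ldah, a lipid droplet hydrolase, differed by 0.050 and was not called. Gdf7 was higher by 1.17 (adjusted p 0.00689 in limma), and Atad2b was not tested. Among hepatocyte markers, Glul, an enzyme of the cells around the central vein, was higher by 1.05 (adjusted p 5.4e-04 in limma). After spike-in scaling the Glul difference was 0.50 and was not called (adjusted p 0.0518 in limma). Cps1, an enzyme of the urea cycle, was lower by -0.75 and Tat, tyrosine aminotransferase, by -1.36, and the other 9 of the 12 were not called. The share called was 25%, against 45.4% of all features.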
